A study of Mus musculus with 4 samples.

Results

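Oxidative phosphorylation runs on protein complexes of the inner mitochondrial membrane whose subunits come from both genomes, and the nuclear part of that set is described here in CD8 T cells. Genes were taken by symbol: names beginning with Nduf followed by a, b, c, s or v, Uqcr, Cox4 to Cox8 or Atp5, the 4 genes Sdha to Sdhd, and Cycs, provided that at least 100 unique molecular identifiers (UMIs) were counted over the 4 libraries together. This gave 89 members of 32285 features. They were 37 subunits of complex I, of which 7 are core and 30 accessory, and 8 complex I assembly factors. They also held the 4 subunits of complex II, 8 of complex III, cytochrome c, 13 of complex IV including Ndufa4, the supercomplex factor Cox7a2l, and 17 of complex V. The 13 protein-coding genes of the mitochondrial genome (mt- genes) are given beside them. Of 95 symbols that fitted the names, 6 fell under the minimum: Cox8c, Cox7b2 and Ndufa4l2 had 0 UMIs, Cox8b 1, Cox4i2 7 and Cox6a2 52. The members nearest above it were Cox6b2 with 487 UMIs, Cox7a1 with 592 and Ndufaf5 with 2379. Cyc1, the cytochrome c1 subunit of complex III, has a name outside the rule and is given with the related genes.

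Draining lymph nodes of tumours were taken from C57BL/6 mice on day 14 after implantation, and CD8+ cells positive for CD44 and CD90.1 were sorted from them. The M9 group is labelled high affinity GP33 and the C6M9 group low affinity GP33, and GP33 is a viral peptide used as a model T cell antigen. Each group had 2 libraries, labelled as biological duplicates, from 10 mice in all for M9 and 35 for C6M9. How the mice were divided between duplicates is not stated. The p-values of group comparisons measure the spread between these libraries, and that spread may be technical in part. Comparisons of cell states, and the test of variation between states, held a term for library. Their p-values measure the scatter of state sums left after that term, among these same libraries. The tumour, the transferred cells and any treatment of the mice are not described further in the labels. The title of the series names progenitor exhausted CD8 T cells and engagement of the T cell receptor (TCR).

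Complex I takes electrons from NADH and complex II from succinate, complex III passes them to cytochrome c, and complex IV gives them to oxygen. Complexes I, III and IV pump protons, and complex V, the ATP synthase, uses the gradient to make ATP. Complex II is built from nuclear genes alone, whereas complexes I, III, IV and V also need mt- genes, so that both genomes must be expressed for assembly. Resting T cells hold few mitochondria, and activated T cells are known to build mitochondrial mass as they grow and divide.

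Of 11113 barcodes, 1325 to 4586 came from each library. After filters 9910 T cells with 234031230 UMIs remained (4092 and 1199 for M9, 2886 and 1733 for C6M9). At least 1 UMI of Cd3e was found in 99.7% to 99.8% of these cells, of Cd8a in 97.1% to 98.6%, and of Cd4 in 1.94% to 2.96%. No pair of libraries shared more than 4 barcodes. Of markers of other cells, the B cell list summed to 319 to 400 counts per 1000000 UMIs (CPM) over the libraries and the CD4 and regulatory T cell list to 36.5 to 78.1, while the red cell and platelet list stayed at or under 0.06 with 2 of its 6 genes at 0. The NK and innate list summed to 246 and 243 CPM in M9 and 141 and 139 in C6M9, of which Eomes made up most, and the NK receptor gene Ncr1 was at or under 0.07 CPM. The gamma delta T cell list summed to 391 to 413 CPM, of which Trdc made up 388 to 410 and the other 5 genes at most 2.34 each. The myeloid list summed to 83.4 to 103 CPM, mostly Cst3 at 70.6 to 84.0, and its Cd68 had 14.9 and 9.63 CPM in M9 and 5.95 and 6.47 in C6M9. The part of these cells in the results below was not tested. Clustering without the members and the mt- genes gave 7 states with at least 50 cells in every library. They were 2200 memory-like cells, 1448 TCR-activated-like, 1210 cycling-like in S phase, 768 cycling-like in mitosis, 1104 effector-like and 813 interferon-like. The last state, of 2049 cells, met no naming rule and is called Izumo1r-led after a gene it expressed highly. The S phase marker list summed to 4177 to 5531 CPM in the S phase state and 1491 to 1865 in the mitosis state. The list for mitosis and the phase before it, which includes histone genes, summed to 8728 to 13361 and 8451 to 10637. It was higher in the S phase state in every library but C6M9 replicate 2. The 2 names follow leading genes and do not part the phases cleanly.

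Over all T cells, the members spanned from 1.98 CPM for Cox6b2 to 885 for Atp5e (means of 4 libraries). Levels are CPM after scaling of the libraries by TMM, the trimmed mean of M-values; in 3′ libraries a transcript gives 1 tag whatever its length, so no length correction was made. In complex I the highest were Ndufa13, an accessory subunit of the membrane arm, with 425 and 355 CPM in M9 and 439 and 410 in C6M9, and Ndufb1-ps, annotated as a non-coding transcript, with 349 to 416. The lowest was Ndufs1, a core subunit that carries iron-sulfur clusters, with 39.4 to 44.5 CPM. The assembly factors ran from Ndufaf8 (65.5 to 72.9 CPM), which lay above Ndufs1, and Ndufaf4 (33.1 to 38.9) down to Ndufaf5 (8.72 to 10.6). In complex II, Sdhb, the iron-sulfur subunit, had 131 to 159 CPM and Sdha, the flavoprotein that holds the active site, 101 to 103. The membrane anchors were Sdhd, at 76.0 to 101 CPM, and Sdhc, the lowest, at 46.1 to 59.1. In complex III the hinge protein gene Uqcrh had 681 to 842 CPM and Uqcr10 345 to 373, against 99.6 to 123 for the core protein gene Uqcrc1. Cycs, the electron carrier between complexes III and IV, had 96.2 and 126 CPM in M9 and 118 and 128 in C6M9. In complex IV, Cox8a (786 to 949 CPM) and Cox4i1 (722 to 959) were highest. In complex V, Atp5e (825 to 930 CPM) and Atp5h (538 to 710) were highest and Atp5o (213 to 293) lowest.

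**Figure D1:**
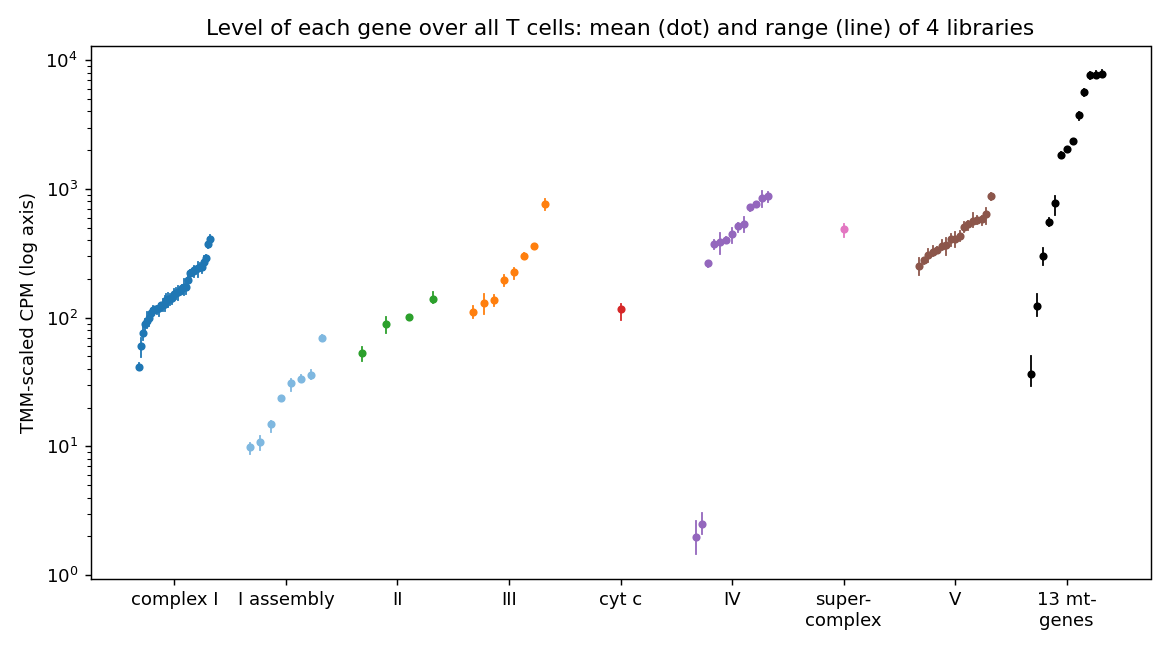
Level of each of the 89 nuclear genes and 13 mt- genes over all T cells, by complex, in TMM-scaled CPM on a log axis; dots are means and lines the range of the 4 libraries. Nuclear genes reach up to Atp5e at 885 CPM, Cox6b2 and Cox7a1 lie near 2 CPM, and the mt- genes reach from mt-Nd6 to mt-Atp6 at 7876 CPM.

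Where a subunit has tissue variants, the widely expressed one was the higher. Of the complex IV variants, Cox6b1 had 462 to 548 CPM against 1.45 to 2.62 for Cox6b2, known from testis, and Cox7a2 had 342 to 400 against 2.10 to 3.03 for the heart and muscle variant Cox7a1. Cox6a1, the non-muscle variant, had 247 to 277 CPM, while the muscle variant Cox6a2 had 52 UMIs in all. Cox4i1 stood against 7 UMIs of the lung variant Cox4i2, Cox8a against 1 of Cox8b, and Ndufa4 at 463 to 608 CPM against 0 of Ndufa4l2. The 3 genes for the same c-ring protein of complex V were all expressed: Atp5g2 at 530 to 621 CPM, Atp5g3 at 315 to 354 and Atp5g1 at 272 to 341. Their transcripts carry different leader peptides for the same mature protein.

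The main axis of variation was the cell state. In S phase cells 82 of the 89 members rose against the mean of the other 6 states and 3 fell (edgeR, adjusted p under 0.05), where 72.2% of 11067 genes were called, 36.3% higher and 36% lower. The median member differed by 0.47 on the log2 scale, against -0.02 over all genes. In mitosis 77 rose and 4 fell (48.7% of genes called, 24.1% higher and 24.6% lower), with a median of 0.35. In TCR-activated-like cells 47 rose and 6 fell (47.1% called, 24.3% higher and 22.9% lower), with a median of 0.14. In the other 4 states most called members fell. The Izumo1r-led cluster had 77 that fell and 3 that rose (44.5% called, 21.2% higher and 23.2% lower), with a median of -0.36. Effector-like cells had 78 and 2 (45.6% called, 21.6% higher and 24% lower), with a median of -0.31. Interferon-like cells had 57 and 3 (30.6% called, 14.9% higher and 15.8% lower), with a median of -0.21. Memory-like cells had 40 and 4 (30.9% called, 13.6% higher and 17.3% lower), with a median of -0.13. The medians over all genes lay between -0.03 and 0.01 in these fits. The states come from other genes of the same cells, so the share of all genes called is the background for each count. Of the 89 members, 50 had their highest mean level in S phase, 27 in mitosis, 9 in TCR-activated-like cells, 2 in memory-like cells and 1 in the Izumo1r-led cluster, and the lowest level was in the Izumo1r-led cluster for 44 and in effector-like cells for 35.

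**Figure D2:**
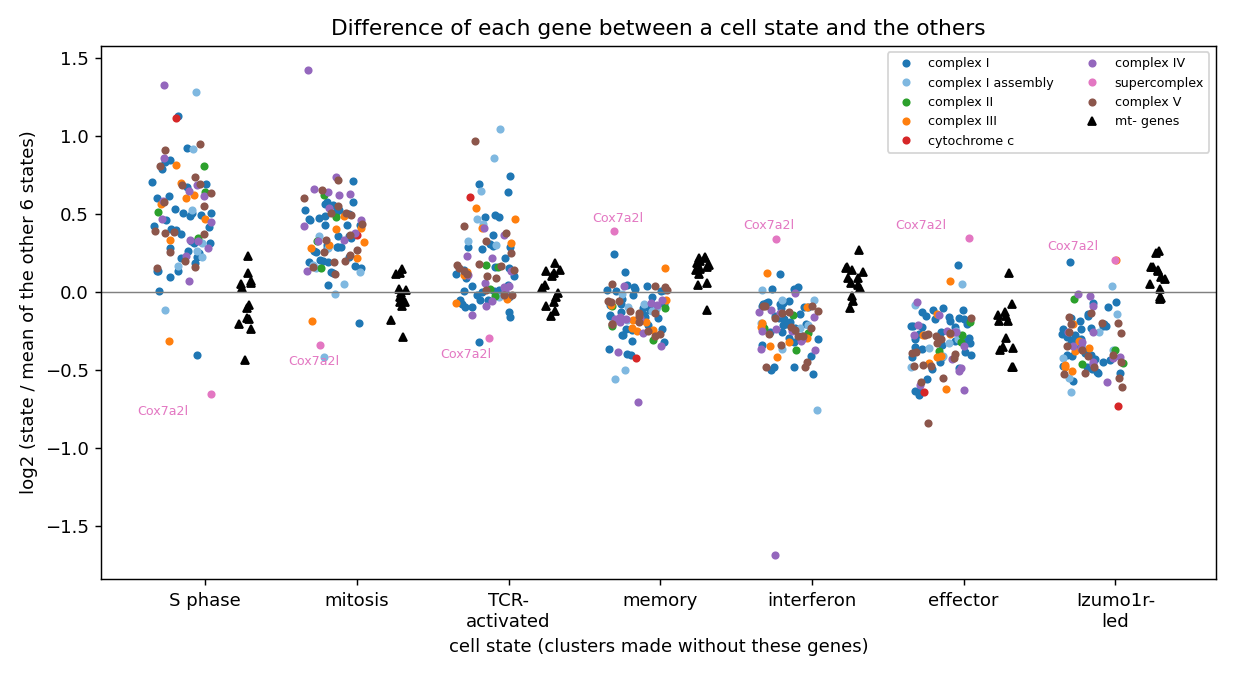
Log2 difference of each gene between a cell state and the mean of the other 6 states (edgeR over 4 libraries), one column per state; circles are nuclear genes coloured by complex, black triangles the 13 mt- genes. Nuclear genes lie mostly above 0 in S phase, mitosis and TCR-activated-like cells and mostly below 0 in the other 4 states, while Cox7a2l lies on the other side in each of the 7 states.

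In S phase all complexes took part: 35 of 37 complex I subunits, 7 of 8 assembly factors, 4 of 4 in complex II, 7 of 8 in complex III, 11 of 13 in complex IV and 17 of 17 in complex V rose. Of members over 10 CPM the largest differences were in Ndufaf2, Ndufab1 and Cycs. Ndufaf2, which assists a late step of complex I assembly, had 56.6 and 64.8 CPM in M9 and 51.0 and 44.9 in C6M9 S phase cells, against 15.6 to 19.9 in memory-like cells, a log2 difference from the other states of 1.28 ± 0.07 (SE, adjusted p = 1.74e-16). Ndufab1, the mitochondrial acyl carrier protein, had 197, 199, 200 and 172 CPM in S phase and differed by 1.13 ± 0.07 (adjusted p = 3.56e-15). Cycs had 159, 228, 158 and 160 CPM and differed by 1.12 ± 0.08 (adjusted p = 3.9e-13). Every S phase library lay above every memory-like library for these 3 genes. Atp5b, the catalytic beta subunit of the ATP synthase, differed by 0.95 ± 0.05 (adjusted p = 5.99e-17). Cox7a1 showed the largest difference, 1.33 ± 0.17, but at only 2.83 to 5.31 CPM, and it was also the largest in mitosis, with 1.42 ± 0.21. Within complex II, Sdhd rose by 0.81, Sdhb by 0.64, Sdhc by 0.51 and Sdha by 0.35.

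The mitosis state also showed a rise in most structural subunits but not in several genes that stood high in the S phase state. All 13 complex IV members rose, with Cox5b, a peripheral subunit, at 546 to 609 CPM (0.66 ± 0.05). The ATP synthase coupling factor gene Atp5j differed by 0.72 ± 0.04 and the accessory subunit gene Ndufb8 by 0.71 ± 0.05. Cox6b2 differed by 0.74 ± 0.24 at 1.94 to 3.86 CPM and was not called in 5 alternatives, in 1 of which its sign changed. By contrast, Ndufab1 differed by 0.12 ± 0.08 (adjusted p = 0.211) and Atp5g1 by 0.11 ± 0.08 (adjusted p = 0.224) in mitosis, and Ndufaf4 fell by 0.42.

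TCR-activated-like cells had a different order. Of the 8 complex I assembly factors 7 rose, of 17 complex V members 12, of 8 complex III members 5, and of 37 complex I subunits 17. The largest differences were in Ndufaf4, which helps build the complex I peripheral arm, with 49.3 and 47.1 CPM in M9 and 77.3 and 79.4 in C6M9 (1.04 ± 0.07, adjusted p = 7.91e-13). Atp5g1 had 368 and 330 CPM in M9 and 533 and 523 in C6M9 (0.97 ± 0.07, adjusted p = 2.86e-12). Both genes had their highest mean of the 7 states here, though Atp5g1 overlapped its S phase values of 367 to 436 CPM. Both groups lay above the 22.3 to 36.5 CPM of Ndufaf4 and the 114 to 242 CPM of Atp5g1 seen in the Izumo1r-led, effector-like, interferon-like and memory-like cells. Ndufaf6 followed with 0.86 ± 0.10, Ndufab1 with 0.74 ± 0.08 and the accessory subunit gene Ndufa12 with 0.70 ± 0.07. Of the c-ring genes Atp5g3 rose by 0.42 and Atp5g2 by 0.14, so that Atp5g1 varied most of the 3 between states.

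The lower states shared many of their leading genes, though each is measured against a mean that holds the others. In the Izumo1r-led cluster Cycs had 53.5, 59.5, 50.2 and 69.2 CPM (-0.73 ± 0.11, adjusted p = 4.96e-06), Ndufaf6 differed by -0.64 ± 0.12, Atp5b by -0.61 ± 0.06, Cox5a by -0.58 ± 0.07 and Ndufa12 by -0.57 ± 0.09. In effector-like cells Atp5g1 had 145, 114, 172 and 159 CPM (-0.84 ± 0.08, adjusted p = 3.64e-09), and Ndufc1, Cycs, Ndufab1 and Ndufa12 differed by -0.66 to -0.63. Interferon-like cells had Ndufaf2 at 13.5 to 19.9 CPM (-0.76 ± 0.12), Ndufa12 at -0.52 ± 0.09, Ndufb8 at -0.50 ± 0.06 and Atp5g1 at -0.48 ± 0.08. Cox7a1 there had 0 to 1.48 CPM (-1.69 ± 0.41), which was not called in 2 alternatives. In memory-like cells Ndufaf2 (-0.56 ± 0.10), Ndufaf6 (-0.50 ± 0.11), Cycs (-0.42 ± 0.10), Ndufa12 (-0.40 ± 0.08) and Ndufab1 (-0.39 ± 0.08) led, and the count that fell was the least stable of the 7: it ranged from 11 to 59 over the alternatives and was 15 without C6M9 replicate 1.

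The 3 members that fell in S phase were Cox7a2l, Ndufa6 and Uqcrh, and Ndufa6 and Uqcrh are described because of these values. Cox7a2l, classed here as the supercomplex factor, had 358 and 283 CPM in M9 and 412 and 401 in C6M9 S phase cells. Its levels in memory-like cells were 698, 582, 743 and 677 CPM. Its protein and the supercomplexes themselves were not measured. In S phase it fell by 0.66 (SE 0.05, adjusted p = 1.19e-13) and in memory-like cells it rose by 0.39 (SE 0.04, adjusted p = 3.82e-08). The S phase and memory-like values did not overlap in any pair of libraries. Cox7a2l also fell in mitosis (-0.34) and TCR-activated-like cells (-0.29) and rose in effector-like (0.35), interferon-like (0.34) and Izumo1r-led cells (0.21), with the same sign and a call in all 11 alternatives for each state. Ndufa6, a peripheral accessory subunit of complex I, had 170 to 197 CPM in S phase (-0.40 ± 0.04) and 234 to 290 in memory-like cells (0.24 ± 0.04), also without overlap. Uqcrh differed by -0.32 ± 0.04 in S phase and 0.21 ± 0.04 in the Izumo1r-led cluster. Copies of these genes elsewhere in the genome can take reads, and how they were counted is not given in the sources used here.

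Promoters were compared for all members that had one, whatever their direction in S phase. Of the 89 members 76 matched a RefSeq promoter by symbol (GRCm38.p6, 250 bases before to 50 after the start, 81 promoters), and 5 motifs were searched on both strands. The NRF1 motif was found in 19 of the 76 (25%), against 5.19% of all promoter genes and 11.6% of genes tested here. The motif of ETS factors such as GABP, CCGGAAG, was also found in 19 (25%), against 9.93% and 20.9%, and the YY1 motif AAGATGGC in 11 (14.5%), against 3.19% and 5.39%. The cAMP response element TGACGTCA was found in 5 (6.58%), against 2.03% and 3.58%, and the E-box CACGTG in 6 (7.89%), against 8.09% and 11.7%. None of the 5 was found in 27 members. No motif overlapped another in the promoters printed here. The median S phase difference of members with and without a motif was 0.53 and 0.47 for NRF1, 0.42 and 0.50 for ETS, 0.55 and 0.46 for YY1, 0.50 and 0.47 for the cAMP response element and 0.69 and 0.47 for the E-box, as a description. A match describes letters in a window and is no measure of binding. The 4 promoters below show the motifs in capitals, 5′ to 3′ on the gene's strand, for the member called over all T cells (Sdhd), the electron carrier (Cycs), the gene that varied most of the c-ring set (Atp5g1), and a member with 2 NRF1 matches (Cox6a1). They cover the 250 bases before the start, at chr9:50603850-50604099, chr6:50566570-50566819, chr11:96075632-96075881 and chr5:115348959-115349208, all on the minus strand.
Sdhd: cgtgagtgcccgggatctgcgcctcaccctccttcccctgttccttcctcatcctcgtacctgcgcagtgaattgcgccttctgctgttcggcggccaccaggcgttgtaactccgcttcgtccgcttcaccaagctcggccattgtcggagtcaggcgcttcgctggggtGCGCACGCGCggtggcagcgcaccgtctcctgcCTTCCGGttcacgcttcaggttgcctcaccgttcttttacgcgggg
Cycs: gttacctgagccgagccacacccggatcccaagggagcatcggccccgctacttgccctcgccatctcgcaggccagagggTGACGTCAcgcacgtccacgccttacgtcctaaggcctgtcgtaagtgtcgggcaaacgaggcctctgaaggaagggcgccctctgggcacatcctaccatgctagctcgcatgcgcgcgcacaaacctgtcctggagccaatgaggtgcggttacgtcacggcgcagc
Atp5g1: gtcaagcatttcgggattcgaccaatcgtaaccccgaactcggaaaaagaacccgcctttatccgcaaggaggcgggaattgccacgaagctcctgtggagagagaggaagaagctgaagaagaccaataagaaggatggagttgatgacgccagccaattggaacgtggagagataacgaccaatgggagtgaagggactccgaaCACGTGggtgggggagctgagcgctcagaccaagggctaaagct
Cox6a1: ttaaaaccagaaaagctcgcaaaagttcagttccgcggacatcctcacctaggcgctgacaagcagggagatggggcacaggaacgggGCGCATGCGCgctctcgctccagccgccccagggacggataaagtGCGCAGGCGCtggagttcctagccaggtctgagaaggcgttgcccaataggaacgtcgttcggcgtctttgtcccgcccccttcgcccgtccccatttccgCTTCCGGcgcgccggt

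In Sdhd the NRF1 match lay at -79 to -70 and the ETS match at -46 to -40 from the start, both on the other strand. In Cycs the cAMP response element lay at -169 to -162, and in Atp5g1 the E-box at -44 to -39. In Cox6a1 an NRF1 match at -162 to -153 read as the motif on both strands. Its NRF1 match at -117 to -108 and its ETS match at -16 to -10 were on the other strand. In S phase Sdhd rose by 0.81, Cycs by 1.12, Atp5g1 by 0.91 and Cox6a1 by 0.69. In mitosis these 4 genes differed by 0.48, 0.37, 0.11 and 0.63.

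The mt- genes did not follow the nuclear genes. Over all T cells they summed to 40634 CPM against 23653 for the 89 nuclear members (means of 4 libraries, before TMM scaling), so that their ratio of nuclear to mt- UMIs was 0.58 ± 0.04 (SD, n = 4 libraries). By state, the nuclear sum was 27157 ± 828 CPM in S phase, 26929 ± 170 in mitosis, 24046 ± 1344 in TCR-activated-like cells, 20322 ± 861 in memory-like, 19690 ± 940 in effector-like, 19531 ± 621 in interferon-like and 19197 ± 731 in Izumo1r-led cells. The lowest S phase library, at 26007 CPM, lay above the highest memory-like library, at 21533. The ranges of the last 4 states overlapped, from 18105 to 21533 CPM in all. As a mean of the libraries, the ratio to mt- UMIs was 0.75 ± 0.08 in S phase and 0.68 ± 0.03 in mitosis. It was 0.59 ± 0.08 in TCR-activated-like cells and ran down to 0.42 ± 0.03 in the Izumo1r-led cluster. In C6M9 replicate 2 it was 0.64 in S phase, 0.64 in mitosis and 0.63 in TCR-activated-like cells. The S phase ratio was 0.78 to 0.81 in the other libraries. Across the 28 sums of library and state, nuclear and mt- CPM correlated with r = -0.71 (rho = -0.68). This is a description, since both are shares of the same UMI totals and the sums of a library share its preparation.

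**Figure D3:**
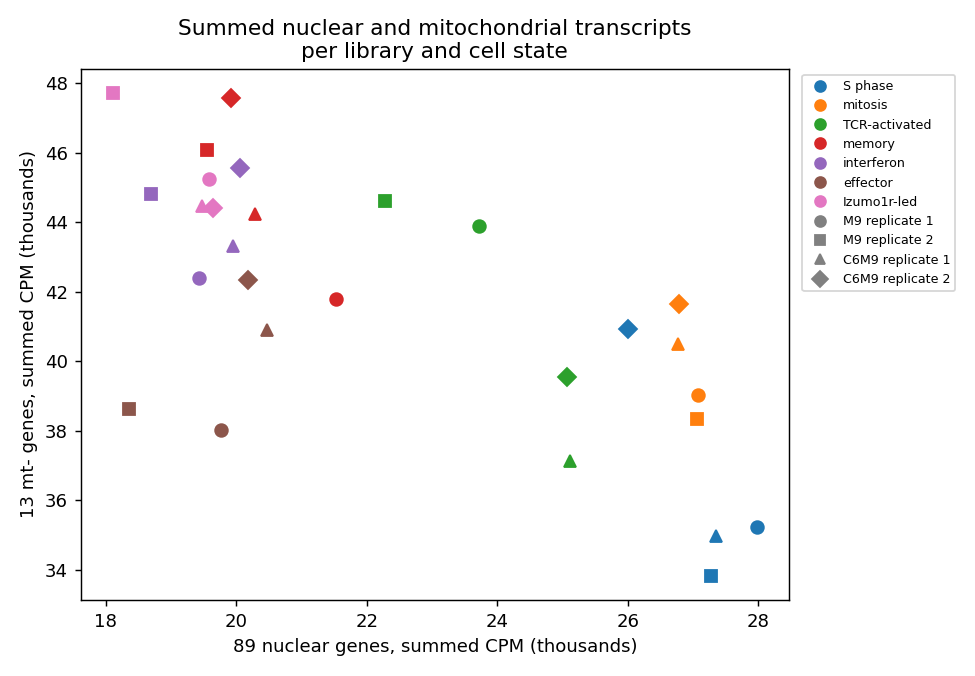
Summed CPM of the 89 nuclear genes (x axis, in units of 1000 CPM) and of the 13 mt- genes (y axis, in units of 1000 CPM), a point for each library and cell state; colours are states and shapes libraries. S phase and mitosis lie at the right with nuclear sums from 26007 CPM up, and memory-like, interferon-like, effector-like and Izumo1r-led cells at the left, with effector-like cells lower in mean mt- sum than the other 3, though their points overlap those of memory-like cells.

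The calls of the 13 mt- genes differed between states. Of all genes, 72.2% were called in S phase, 48.7% in mitosis, 47.1% in TCR-activated-like cells and 45.6% in effector-like cells. The share was 44.5% in the Izumo1r-led cluster, 30.9% in memory-like cells and 30.6% in interferon-like cells. In S phase and mitosis the share of mt- genes called was below that of all genes. In S phase 6 fell and 1 rose, led by mt-Co1, the catalytic subunit of complex IV, which had 6268 ± 899 CPM (SD, n = 4 libraries) and differed by -0.44 ± 0.04 (SE, adjusted p = 2.65e-10). The gene that rose in S phase was mt-Nd1, a complex I membrane subunit, with 0.23 ± 0.04. In memory-like cells 9 rose and 0 fell, with mt-Co1 at 9267 ± 657 CPM and mt-Atp6, the proton channel subunit of complex V, at 9247 ± 584 (0.22 ± 0.03). The Izumo1r-led cluster had 8 and interferon-like cells 5 that rose, with 0 that fell. In effector-like cells 10 mt- genes fell and 1 rose (median -0.19), and 7 to 11 fell over the alternatives, with mt-Nd1 at 1701 ± 142 CPM (-0.48 ± 0.04) and the complex III gene mt-Cytb at 2770 ± 443 (-0.48 ± 0.04), while mt-Co1 rose by 0.12. In mitosis 2 rose and 2 fell, with 1 to 4 that rose and 1 to 7 that fell over the alternatives (7 with doublets kept). In TCR-activated-like cells 5 rose and 2 fell, with ranges of 1 to 7 and 0 to 3. Of these, 1 rose without M9 replicate 1, 3 rose and 3 fell without M9 replicate 2, and 0 fell without either C6M9 library. A limit of 10% mt- UMIs per cell had been set. With a limit of 5% the count of mt- genes that rose in S phase was 5 and the count that fell 5, so the mt- counts depend on that limit, and over all alternatives 5 to 7 fell in S phase.

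Depth moved with state. The median T cell of a library held 35678 to 66335 UMIs in S phase, 19681 to 32013 in mitosis and 15557 to 28867 in TCR-activated-like cells, against 9820 to 18252 in the other 4 states. In cells of 20000 to 40000 UMIs only, a window chosen after the data were seen, the nuclear sums were 26732 ± 1457 CPM in S phase, 27609 ± 1065 in mitosis and 24639 ± 1441 in TCR-activated-like cells. They were 20503 to 20628 in the other 4 states, from as few as 8 cells in a library. So the 3 states with high nuclear sums were the same in that window. The mitosis sum lay above the S phase sum there in every library. In M9 these were 27847 against 27215 CPM and 26137 against 24582, and in C6M9 28684 against 27819 and 27769 against 27310. Without the window S phase was the higher in every library but C6M9 replicate 2. The ratio to mt- UMIs in the window was 0.66 ± 0.08 in S phase and 0.70 ± 0.04 in mitosis. It was 0.61 ± 0.08 in TCR-activated-like cells and 0.45 to 0.49 in the other 4 states.

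Between the groups, the members differed little over all T cells. Of the 89 members 1 passed the threshold, Sdhd, where 5.91% of 13662 genes did, 1.69% higher and 4.22% lower (edgeR, adjusted p under 0.05). Sdhd, at chr9:50596357-50603812 (GRCm38, minus strand), had 81.6 and 76.0 CPM in M9 and 101 and 98.3 in C6M9. The groups did not overlap, and the difference was 0.34 ± 0.08 on the log2 scale (adjusted p = 0.0489). In 5 of the alternatives it was not called, among them those without either C6M9 library. Of the members 82 lay above 0 with a median of 0.14, against -0.01 over all genes, and 23 (25.8%) had an unadjusted p under 0.05, against 24.3% of all genes. DESeq2 called 9 members and 8.07% of all genes. Cox6b2 had the largest difference, -0.74 ± 0.19 at 2.62 and 2.33 CPM in M9 and 1.53 and 1.45 in C6M9 (adjusted p = 0.0649). Sdhc, the other membrane anchor, differed by 0.25 ± 0.08 (adjusted p = 0.123), Sdhb by 0.16 ± 0.09 (0.343) and Sdha by 0.00 ± 0.07 (0.99). Cycs differed by 0.15 ± 0.13 (adjusted p = 0.526). Of the mt- genes 0 of 13 were called and 1 had an unadjusted p under 0.05: mt-Nd6, the only one of them on the light strand, with 34.9 and 50.8 CPM in M9 and 29.7 and 30.9 in C6M9 (-0.49 ± 0.16, adjusted p = 0.115). DESeq2 called 1 mt- gene lower.

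The count over all T cells turned on the libraries. Without M9 replicate 1 it was 29 of 89 higher, with 14.9% of all genes called in that fit. Without M9 replicate 2 it was 2 higher and 1 lower, with 14.0% of all genes called. Without C6M9 replicate 1 or 2 it was 0, with 1.80% and 2.63% of all genes called. The mix of states differed between the groups as well. Izumo1r-led cells made up 36.4% and 28.8% of T cells in M9 and 4.05% and 5.60% in C6M9, memory-like cells 6.13% and 12.5% against 40.6% and 36.2%, and S phase cells 8.60% and 11.5% against 15.4% and 15.9%. With each state given equal weight (limma) 0 members were called and the median was 0.04. Summed by library, the nuclear members made up 23151 ± 677 CPM in M9 and 24156 ± 478 in C6M9 (SD, n = 2 each).

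Within states, the group difference was called in TCR-activated-like cells: 22 of 89 members rose in C6M9 and 1 fell, where 16.9% of 10024 genes were called (9.75% higher and 7.12% lower). The 22 were 8 complex I subunits, 2 assembly factors, Sdhd, 3 complex III members, Cycs, Cox5a and 6 complex V members. The median member differed by 0.23. Leaving out C6M9 replicate 2 gave 9 that rose, C6M9 replicate 1 11, and M9 replicate 1 34, with 4.09%, 6.72% and 10.3% of all genes higher in those fits. Ndufs7, a core subunit that hands electrons to ubiquinone (chr10:80249121-80256794), had 86.7 and 77.3 CPM in M9 and 135 and 133 in C6M9, a difference of 0.70 ± 0.12 (adjusted p = 0.000346). Sdhd had 71.8 and 62.8 CPM against 109 and 104 (0.65 ± 0.12, adjusted p = 0.00095). Ndufaf4 had 51.0 and 48.8 CPM against 76.7 and 78.8 (0.64 ± 0.12, adjusted p = 0.00136). In all 3 genes both C6M9 libraries stood above both M9 libraries by more than the gap within either group. Cycs had 100.1 and 113 CPM against 151 and 176 (0.63 ± 0.12, adjusted p = 0.00113). Atp5g1 had 381 and 342 CPM against 529 and 519, and Ndufab1, picked after its values were seen, 137 and 114 against 192 and 192. Cox6b2, the member that fell, had 2.75 and 3.30 CPM against 0.34 and 0.95 (-2.13 ± 0.66, adjusted p = 0.0299), and it was not called in 5 alternatives. The 13 mt- genes gave 0 calls and 0 with an unadjusted p under 0.05, with a median of -0.14.

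**Figure D4:**
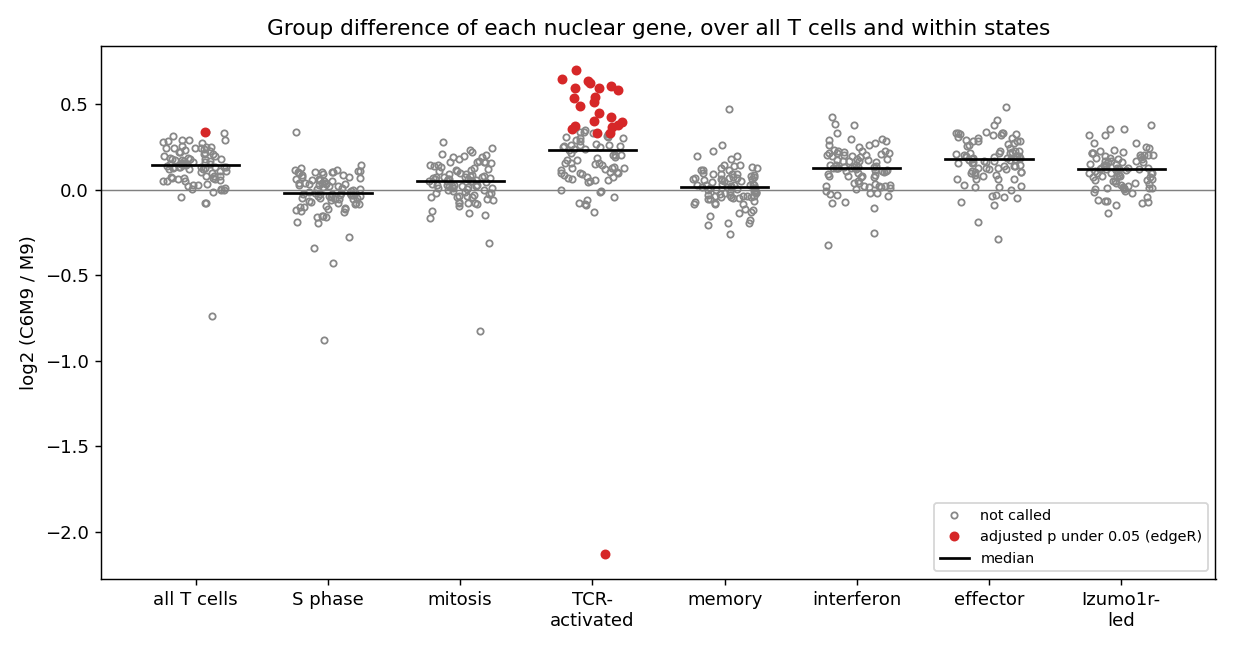
Log2 difference between C6M9 and M9 for each nuclear gene over all T cells and within each of the 7 states; filled red circles passed an adjusted p of 0.05 in edgeR, open circles did not, and bars are medians. The red circles stand in TCR-activated-like cells, apart from Sdhd over all T cells, and the lowest of them is Cox6b2.

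Within the other 6 states edgeR called 0 members. Of all genes it called 1.47% in effector-like cells, 1.2% in interferon-like cells, 0.827% in mitosis, 0.306% in the Izumo1r-led cluster, 1.61% in S phase and 0.315% in memory-like cells. An unadjusted p under 0.05 was found for 24 of 87 members tested in effector-like cells, or 27.6% against 14.9% of all genes. In the other 5 states the share of members was near or below that of all genes: 12.6% against 12.7% in interferon-like cells, 5.62% against 10.4% in mitosis, 4.60% against 8.28% in the Izumo1r-led cluster, 3.37% against 14.9% in S phase and 1.14% against 8.57% in memory-like cells. The medians were 0.18 in effector-like, 0.13 in interferon-like and 0.12 in Izumo1r-led cells and between -0.02 and 0.05 in the other 3. Without M9 replicate 1 the count in effector-like cells was 28 higher, with 7.48% of all genes called in that fit. Whether the difference varied between states was tested in edgeR over all state sums: it did for 37 of 89 members and 8 of 13 mt- genes, where 15.9% of 11067 genes were called. Without C6M9 replicate 2 the count of members was 1 (2.3% of all genes called), without M9 replicate 2 it was 21 (10.4%) and without C6M9 replicate 1 24 (10.7%), and it was 25 to 45 in the other alternatives.

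The make-up of the TCR-activated-like state differed between the groups, and its part in these calls was not tested beyond fine cluster 6. The state had 1046 and 214 cells in M9 and 108 and 80 in C6M9, with median depths of 15557 and 24346 UMIs against 20759 and 28867. Split at a finer resolution, 24.6% and 25.7% of its M9 cells and 56.5% and 68.8% of its C6M9 cells fell in fine cluster 6, led by the chemokine gene Xcl1 and the growth genes Srm and Nolc1. In turn 59.5% and 55.6% against 30.6% and 23.8% fell in fine cluster 8, led by Tnfrsf4, Cd83 and Egr3. Nuclear members summed to 25874 ± 508 CPM in fine cluster 6 and 22395 ± 1309 in fine cluster 8 (SD, n = 4 libraries), and the 2 ranges did not overlap. Within fine cluster 6, 0 of 87 members tested were called, where 5.08% of 9287 genes were (edgeR; 6 members, or 6.90%, had an unadjusted p under 0.05 against 15.8% of all genes, and the median was 0.10). There Ndufs7 differed by 0.39 ± 0.12 (adjusted p = 0.0847), Sdhd by 0.38 ± 0.12 (0.0855), Cycs by 0.02 ± 0.12 (0.965) and Ndufaf4 by -0.14 ± 0.13 (0.664). Fine cluster 8 had 33 and 21 cells in C6M9, too few for the test. The S phase marker list summed to 1053 and 1013 CPM in TCR-activated-like M9 cells and 1663 and 1934 in C6M9, and the TCR-activation list to 2490 and 2230 against 1620 and 1560.

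**Figure D5:**
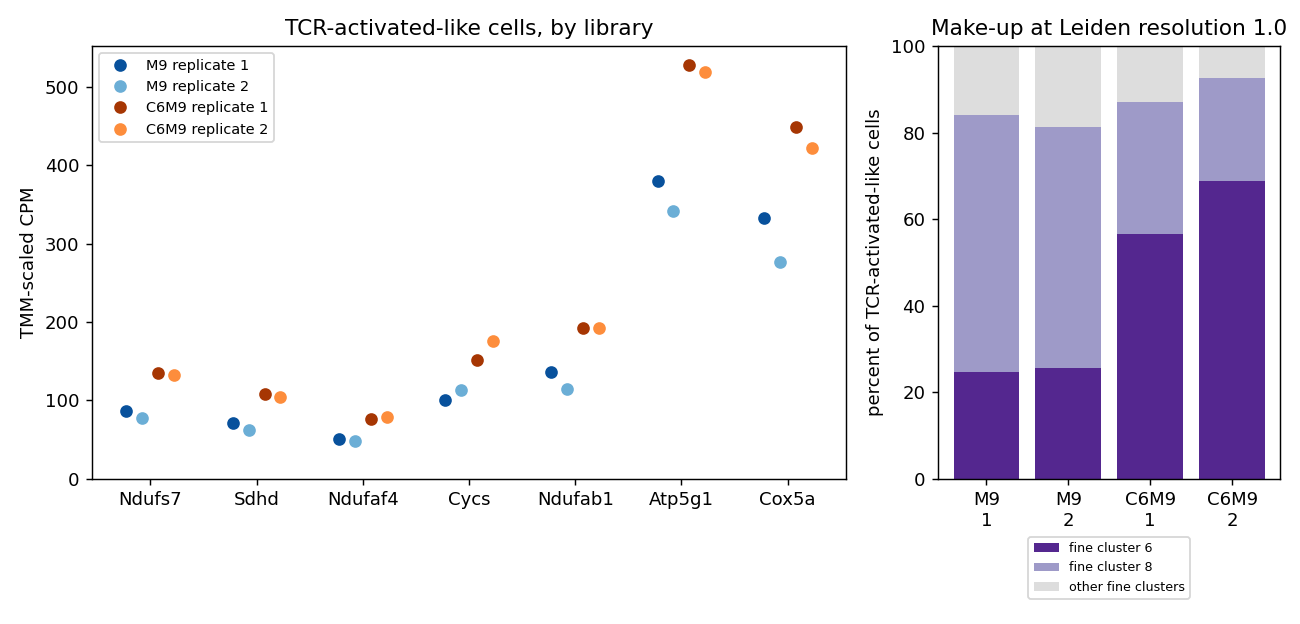
Left, TMM-scaled CPM of 7 members in TCR-activated-like cells, a point for each of the 4 libraries; right, the percent of these cells in fine clusters 6 and 8 in each library. The C6M9 points lie above the M9 points for each gene shown, and fine cluster 6 makes up 24.6% and 25.7% of the M9 cells and 56.5% and 68.8% of the C6M9 cells.

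Genes outside the rule that serve the same organelle were read from the same fits, by lists. In the S phase fit 36.3% of all genes were called higher and 36% lower. In S phase 72 of 78 mitochondrial ribosome genes tested rose and 4 fell (median 0.57), led by Mrpl12 (1.19 ± 0.08), Mrpl18 (1.15 ± 0.05) and Mrpl28 (1.13 ± 0.06). Of 31 carrier and import genes 27 rose and 1 fell, led by the chaperone genes Hspd1 (1.59 ± 0.11) and Hspa9 (1.29 ± 0.09) and the import channel gene Timm50 (1.45 ± 0.08). Of 22 genes of the citrate cycle and pyruvate dehydrogenase 18 rose and 2 fell, among them Fh1, fumarase, with 1.18 ± 0.07, and Pdk2, a kinase that inhibits pyruvate dehydrogenase, with -1.06 ± 0.24. Of the list of other assembly factors, which also holds the subunit gene Cyc1, 24 of 42 rose and 9 fell, with Cyc1 at 0.95 ± 0.06, Coa7 at 0.93 ± 0.11 and Atpaf2 at 0.68 ± 0.07. Of 19 genes for expression and copying of mitochondrial DNA 12 rose and 0 fell, among them the nuclease gene Mgme1 (1.48 ± 0.13). Of 19 regulators 8 rose, near the share of all genes, and 4 fell. Among them were Pprc1 at 0.81 ± 0.13, Ddit3 at -0.79 ± 0.08 and Esrra at -0.68 ± 0.08. The ATP synthase inhibitor gene Atpif1 rose by 0.55.

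In TCR-activated-like cells 5 of 19 regulators rose and 3 fell, where 24.3% of all genes were called higher and 22.9% lower. Myc, a growth transcription factor, differed by 2.02 ± 0.12, the coactivator genes Pprc1 by 1.62 ± 0.14 and Ppargc1b by 0.75 ± 0.15, Hspd1 by 1.65 ± 0.11 and Lrpprc, which stabilises mt- transcripts, by 0.94 ± 0.10. Of 31 carrier and import genes 23 rose and 0 fell, of 78 mitochondrial ribosome genes 53 rose and 3 fell, and of 42 other assembly factors 16 rose and 3 fell. In the Izumo1r-led cluster 68 of 78 mitochondrial ribosome genes and 26 of 31 carrier and import genes fell. Of all genes 23.2% fell there, and Myc differed by -1.44 ± 0.19.

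In the group comparison within TCR-activated-like cells, 36 of 78 mitochondrial ribosome genes rose in C6M9 and 0 fell (median 0.37), and 19 of 31 carrier and import genes rose and 1 fell (median 0.42). Hspd1 differed by 1.03 ± 0.12, the import pore gene Tomm40 by 0.84 ± 0.11 and Mrps28 by 0.83 ± 0.12. Of the other lists, 7 of 42 assembly factors and 4 of 22 citrate cycle genes rose. So did 2 of 19 mitochondrial DNA genes and 2 of 19 regulators. Of all genes in that fit 9.75% rose and 7.12% fell, and the mitochondrial DNA and regulator counts lay near the share that rose. The regulators that rose were Pprc1 (0.82 ± 0.20) and Myc (0.48 ± 0.13), while Hif1a (-0.46 ± 0.12) and Atpif1 (-0.46 ± 0.13) fell. Over all T cells, 2 genes of these lists were called in edgeR, where 5.91% of all genes were. Mrps6 fell by 0.78 (SE 0.08, adjusted p = 0.00235) and Mrpl30 rose by 0.36 (SE 0.08, adjusted p = 0.0491).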

How the data were processed

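Single-cell RNA libraries (10x 3′ v3.1) were made from sorted CD8 T cells, with 2 libraries a group. UMI counts per gene and cell were deposited as filtered matrices made with Cell Ranger 6.0.0 on mm10, per the submitters' processing notes; the annotation release is not given in the sources used here. The library was the replicate.

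Barcodes with at least 500 genes, 1000 UMIs and at most 10% mt- UMIs were kept. Scrublet's own threshold marked under 0.5% of cells, so the highest scores were removed at 0.8% per 1000 barcodes (289 cells). Clustering (scanpy 1.11.5, 2000 variable genes without members and mt- genes, 30 components, 15 neighbours, Leiden resolution 0.6, seed 7) gave states named from marker lists; splitting cycling cells into S phase and mitosis, and keeping apart a Gzma-led cluster of 318 cells, followed rules set after the clusters were seen. The 125 B cell-like cells were left out. In other settings a cluster took the state of most of its cells.

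Counts summed by library, or by library and state, were tested with edgeR 4.0.16 (quasi-likelihood, TMM, filterByExpr, R 4.3.3), with Benjamini-Hochberg adjustment over all genes tested at 0.05. State fits held a term for library. DESeq2 1.42.0 and limma 3.58.1 (equal state mix, log2 of CPM plus 1) were alternatives. Each group has 2 libraries, so an exact permutation test could not go below p = 0.333. In simulated counts over all T cells (13453 genes), 1.49% of 1.25-fold, 38.8% of 1.5-fold and 78.8% of 2-fold changes were recovered; within TCR-activated-like cells (9898 genes) these were 2.99%, 26.9% and 74.2%.

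Genes were named by a rule: members called between groups, the 2 highest and the lowest of each complex, the 5 largest called differences of each state, paralog sets, Sdha to Sdhd, Cycs, the mt- genes and the 3 largest called in each related list. The members and lists were chosen with earlier results of these data known. Fine clusters, the depth window and, for states, the 5% mt- limit and keeping doublets were added after the data were seen.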

Additional observations from a re-analysis of the deposited data

Results flagged for a closer look

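The group difference varied between the 7 states for 37 of the 89 nuclear members and 8 of the 13 mt- genes, by the state-by-group terms of the edgeR fit. Of all 11067 genes tested, 15.9% were called. Among the members named within TCR-activated-like cells, the adjusted p of these terms was 0.000104 for Ndufs7, 0.000207 for Sdhd, 0.000141 for Cycs and 0.0336 for Ndufaf4. The differences of these 4 genes were 0.63 to 0.70 on the log2 scale in TCR-activated-like cells. Fine cluster 6 made up 24.6% and 25.7% of those cells in M9 and 56.5% and 68.8% in C6M9. Without C6M9 replicate 2 the test called far fewer members and a far smaller share of all genes.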

How the results depend on the processing

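Over all T cells, the count of members higher in C6M9 (1 as reported, with 0 lower) was 9 with DESeq2, 6 with no filter on low counts, and 0 with library size scaling only, a 5% mt- limit or an equal state mix; 1 was lower with no filter and 1 with library size scaling. Of all genes these fits called 8.07%, 9.94%, 6.57%, 4.46% and 1.51%. Leaving out a library gave 0 to 29 higher (29 without M9 replicate 1) and 0 to 1 lower. The mt- genes lower in C6M9 (0 as reported) were 1 with DESeq2, 1 with no filter and 0 to 2 with a library left out. Of related genes, 1 was higher and 1 lower as reported; higher were 13 with DESeq2, 17 with no filter, 3 with doublets kept, and 0 with library size scaling, a 5% limit or an equal mix, and 0 to 56 with a library left out. Lower were 2 with DESeq2, 2 with library size scaling, 2 with an equal mix, 4 with no filter, and 1 to 5 with a library left out.

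With the replicate number as a block (7.38% of all genes called over all T cells), 4 members and 7 related genes were higher over all T cells. There 1 mt- gene and 2 related genes were lower. Within TCR-activated-like cells the block gave 30 members higher, where 18.9% of all genes were called, 10.9% higher. In the other 6 states together it gave 1 member higher, where 1.0% to 2.77% of all genes were called in a state. Deviations of like-numbered libraries correlated with r = -0.06 over genes. With 2 libraries a group, this value cannot tell whether like-numbered libraries shared a batch, and the labels name none. Median UMIs per barcode were 12833 in M9 and 13412 in C6M9 for replicate 1, and 19262 and 19452 for replicate 2. The test of variation between states had no block fit.

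Within TCR-activated-like cells the 22 members higher became 9 to 34 with a library left out (below 15 only when either C6M9 library was absent, 34 without M9 replicate 1) and 0 in fine cluster 6; the 1 lower was 0 there, at resolution 1.0, with no mt- limit and with any library left out (0 to 0). In the other 6 states together 2 were higher with no filter, 1 with no mt- limit, 1 at resolution 1.0, and 0 to 35 with a library left out (28 in effector-like cells without M9 replicate 1), with 0 to 2 lower. Variation between states was called for 1 to 25 members and 5 to 8 mt- genes with a library left out. In memory-like cells 17 members fell with doublets kept, 11 with members used in clustering and 15 to 44 with a library left out (15 without C6M9 replicate 1), where 19.4%, 15.2% and 8.53% of all genes fell with doublets kept, with members used in clustering and without C6M9 replicate 1.

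With a 5% mt- limit the nuclear to mt- ratio was 0.640 in M9 and 0.666 in C6M9, and 0.534 in M9 with no limit. That limit moved complex I to 6572 CPM in C6M9, complex II to 387 in M9, and complex V to 7780 in M9 and 8148 in C6M9. Cox6b2 in mitosis differed by -0.050 with members used in clustering. Of 41 results for named genes, 37 kept direction and call in every alternative run; the others were Sdhd over all T cells, Cox6b2 in mitosis and within TCR-activated-like cells, and Cox7a1 in interferon-like cells. The causes of these shifts were not tested. Small changes between groups were rarely recovered in simulated counts, so members not called may still differ.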

Other observations

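The Gzma-led cluster, with 13 to 128 cells in a library, entered no test. Its nuclear members summed to 28832 and 27818 CPM in M9 and 28428 and 28893 in C6M9, and its ratio of nuclear to mt- UMIs ran from 0.85 to 0.97 over the 4 libraries. These ratios lay above those of every S phase library, which reached 0.81. Its median cell held 35395 to 69249 UMIs. The B cell-like cells, 11 to 46 in a library, had ratios of 0.28 to 0.45.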
